A study of Homo sapiens with 24 samples.

Results

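The 10 genes described here encode transcription factors and a coactivator that hold a cell in the B cell state or move it towards the plasma cell: BACH2, PRDM1, IRF4, XBP1, PAX5, EBF1, IKZF1, IKZF3, SPIB and POU2AF1. They were chosen by gene name from the 58735 genes of the count table, with earlier results of these data known. Bulk RNA sequencing was done on 2 established human lines of diffuse large B cell lymphoma, OCI-Ly18 and SU-DHL-4, which both carried GFP. Each line was kept for 72 h with DMSO or with 500 nM tazemetostat, an inhibitor of EZH2, the catalytic subunit of a Polycomb complex that marks silent genes on histones. The cells were then cultured for 48 h, still with the drug or DMSO, with CART19 cells, T cells with a chimeric antigen receptor, or with UTD cells, an abbreviation that the labels do not spell out. Viable GFP-positive cells were sorted before RNA extraction, a gate for lymphoma cells that were alive at the end. Some libraries also held counts of T cell products, which are given below. The 8 groups (line, drug and T cells) held 3 libraries each, and the labels do not say whether these came from separate cultures, so p-values measure the spread between libraries only. Libraries held between 14783781 and 20148891 counts.

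BACH2 represses plasma cell genes, PRDM1 among them, by binding DNA with small MAF proteins. PRDM1 (Blimp-1) in turn silences B cell genes such as PAX5, and IRF4 is needed for both class switching and plasma cell formation. XBP1 drives the secretory genes of the plasma cell. PAX5 and EBF1 establish and keep B cell identity, IKZF1 (Ikaros) and IKZF3 (Aiolos) are zinc finger factors of lymphoid cells, SPIB is an ETS family factor of B cells, and POU2AF1 is the coactivator of octamer-binding factors at immunoglobulin promoters. IRF4 and PRDM1 are also made by activated T cells. Counts per gene do not separate the spliced from the unspliced mRNA of XBP1.

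All 3 genes with the largest changes lie on chromosome 6 of GRCh38: BACH2 (ENSG00000112182) at chr6:89926529-90296908 on the minus strand, PRDM1 (ENSG00000057657) at chr6:106086320-106109939 and IRF4 (ENSG00000137265) at chr6:391739-411447, the last 2 on the plus strand. Their promoter windows, from 250 bases before to 50 bases after a RefSeq start (build GRCh38.p14), are shown because these 3 genes carry the results below. PRDM1 has 2 starts. Capitals mark matches to the motifs searched on both strands, which were TGANTCA (the AP-1 core and the centre of the element that BACH2 and small MAF proteins bind), TGACGTCA (the cyclic AMP response element), TTCNNNGAA (the gamma-activated site), the interferon-stimulated response element (GAAA, any 2 bases, GAAA) and TATAAA.
BACH2 chr6:90296794-90297093: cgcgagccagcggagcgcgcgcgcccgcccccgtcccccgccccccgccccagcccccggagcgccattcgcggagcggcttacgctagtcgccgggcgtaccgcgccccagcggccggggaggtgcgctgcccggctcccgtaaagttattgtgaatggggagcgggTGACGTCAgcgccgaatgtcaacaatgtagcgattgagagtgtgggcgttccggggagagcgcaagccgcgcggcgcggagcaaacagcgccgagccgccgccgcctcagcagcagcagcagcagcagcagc
PRDM1 first start chr6:106086086-106086385: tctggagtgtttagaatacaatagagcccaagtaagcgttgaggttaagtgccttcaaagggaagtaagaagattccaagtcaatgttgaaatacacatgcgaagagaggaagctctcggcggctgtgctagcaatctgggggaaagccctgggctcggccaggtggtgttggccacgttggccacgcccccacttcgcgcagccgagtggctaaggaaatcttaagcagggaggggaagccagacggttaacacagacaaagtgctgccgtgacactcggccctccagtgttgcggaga
PRDM1 second start chr6:106098691-106098990: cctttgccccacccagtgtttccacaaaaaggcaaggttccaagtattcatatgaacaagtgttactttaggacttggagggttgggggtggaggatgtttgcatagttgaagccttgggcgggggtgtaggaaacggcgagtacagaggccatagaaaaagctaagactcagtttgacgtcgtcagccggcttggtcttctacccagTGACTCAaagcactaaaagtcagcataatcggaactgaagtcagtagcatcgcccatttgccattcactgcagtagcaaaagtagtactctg
IRF4 chr6:391502-391801: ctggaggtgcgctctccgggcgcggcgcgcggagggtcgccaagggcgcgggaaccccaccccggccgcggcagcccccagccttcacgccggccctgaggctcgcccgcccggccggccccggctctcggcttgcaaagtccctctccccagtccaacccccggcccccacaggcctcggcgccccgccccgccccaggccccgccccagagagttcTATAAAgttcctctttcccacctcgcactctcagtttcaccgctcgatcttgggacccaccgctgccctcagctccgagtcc

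Each of these windows held at most 1 match, so no matches overlapped. The BACH2 window held TGACGTCA with its first base 82 bases before the start, and 1.85% of 35116 promoter windows of the same 300 bases held that motif. The second PRDM1 window held TGACTCA 42 bases before the start, a form of TGANTCA, which 7.71% of windows held. The IRF4 window held TATAAA 32 bases before the start, a motif in 11.5% of windows. The BACH2 window was rich in CpG, with 45 of them, and 3.48% of all windows held as many, while the IRF4 window held 32, the first PRDM1 window 14 and the second 8, against a median of 14 over all windows. TTCNNNGAA and the interferon-stimulated response element, which 7.66% and 3.57% of windows held, were not among the letters of these 4 windows. Windows of XBP1, PAX5, EBF1, IKZF1 and SPIB are not printed, and IKZF3 and POU2AF1 are named only.

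The other members lie on other chromosomes of the same build. XBP1 is at chr22:28794555-28800597, PAX5 at chr9:36833275-37034185 and EBF1 at chr5:158695916-159099761. IKZF1 is at chr7:50304068-50405101, IKZF3 at chr17:39757715-39864188, SPIB at chr19:50418938-50431313 and POU2AF1 at chr11:111352252-111455630. Exons of 4 members overlap those of a gene on the opposite strand, and the strand setting of the counting is not given in the sources used here. BACH2 shares 396 of its 9786 exon bases with AL121787.1, which had 0 to 43 counts per library, PAX5 shares 80 bases with AL161781.2 (0 to 23 counts), IKZF1 110 with AC124014.1 (1 to 31) and POU2AF1 236 with AP002008.2 (0 to 3). SPIB shares 839 bases, 19.6% of its exon length, with AC020909.1 on the same strand, which had 0 counts in each library, so reads of these 2 genes cannot be told apart there.

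Both lines carried the genes that mark B cells. Levels are given as CPM (counts per 1000000 counts of a library). With DMSO and UTD cells, CD79A and CD79B, the signalling chains of the B cell receptor, had 194 ± 8.43 and 496 ± 34.3 CPM in OCI-Ly18 (SD, n = 3) and 589 ± 45.6 and 244 ± 8.37 CPM in SU-DHL-4. MS4A1, which encodes CD20, had 518 ± 18.4 and 1644 ± 83.2 CPM and CD22 had 312 ± 7.27 and 1043 ± 19.7 CPM in the 2 lines. POU2AF1 and PAX5 were abundant in both lines, and the lines differed most in BACH2, IRF4 and PRDM1. Levels of different genes are compared here as CPM per kilobase of the gene length in the table. In OCI-Ly18 with DMSO and UTD cells, POU2AF1 stood highest at 138.8 ± 2.24 CPM per kilobase (SD, n = 3), followed by PAX5 at 84.3 ± 0.637, BACH2 at 63.8 ± 0.678 and IKZF3 at 59.98 ± 1.54. SPIB (24.5 ± 0.889) and EBF1 (24.2 ± 1.30) overlapped, and IRF4 (21.8 ± 1.26), IKZF1 (18.2 ± 0.595), XBP1 (15.5 ± 0.501) and PRDM1 (0.176 ± 0.0722) came after them, each apart from its neighbour in every library. PRDM1 was thus the lowest of the 10 genes while BACH2 was the third.

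In SU-DHL-4 with DMSO and UTD cells the same scale gave another order. POU2AF1 (40.3 ± 1.15 CPM per kilobase) was followed by IKZF1 (34.2 ± 2.92), then by PAX5 (24.9 ± 1.21) and IKZF3 (24.7 ± 0.138), which overlapped, and by SPIB (12.4 ± 0.687) and EBF1 (7.34 ± 0.707). The bottom of the order held XBP1 (1.21 ± 0.0964), BACH2 (0.424 ± 0.0746), and IRF4 and PRDM1, which had 1 and 0 counts over the 3 libraries. Ranking by TPM (length-scaled values brought to a common sum) computed from the same counts and lengths gave the same order of all 10 genes in each of the 8 groups.

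**Figure D1:**
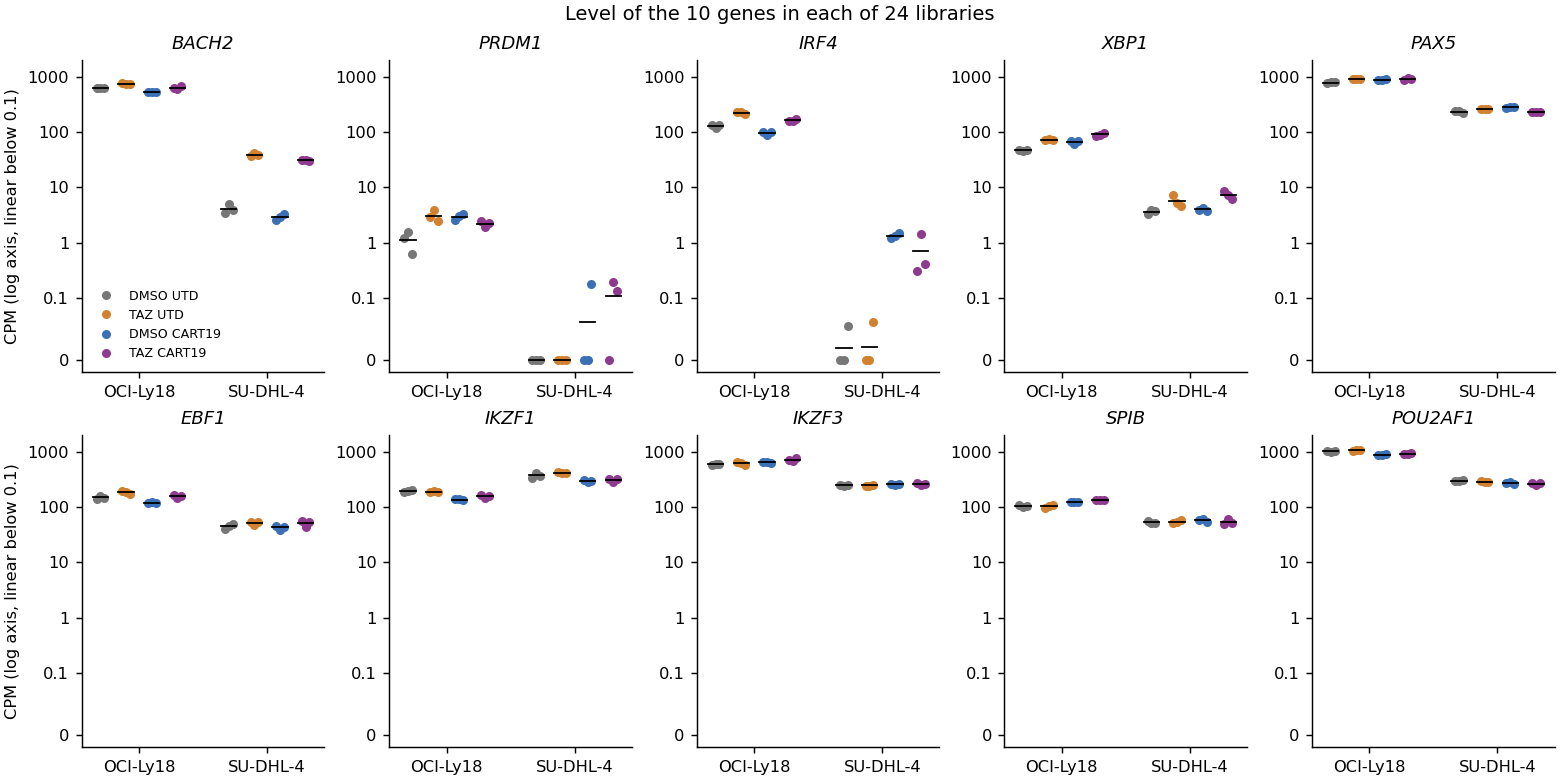
Level of each gene in CPM (log axis, linear below 0.1) in all 24 libraries, by line and group; points are libraries and black lines are group means. BACH2 and IRF4 stand high in OCI-Ly18 and low in SU-DHL-4, where BACH2 lies between 2.59 and 4.95 CPM with DMSO and between 30.2 and 41.1 CPM with tazemetostat.

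With DMSO and UTD cells, 10 of the 10 genes differed between the lines (edgeR's quasi-likelihood test, Benjamini-Hochberg adjusted p below 0.05), where 64.8% of the 17766 genes tested did, 29% higher and 35.9% lower in SU-DHL-4. PRDM1 passed the filter on low counts only through OCI-Ly18. IRF4 passed it through OCI-Ly18 and through SU-DHL-4 with DMSO and CART19 cells, not through the SU-DHL-4 group compared here. The calls of both were thus fixed by the groups in which they were high. Of the other 8, IKZF1 was higher in SU-DHL-4, at 374 against 198 CPM, and 7 were lower. BACH2 had 632, 623 and 619 CPM in OCI-Ly18 and 3.51, 4.95 and 3.98 CPM in SU-DHL-4, a log2 difference of -7.15 ± 0.076 (SE; adjusted p 1.38e-47). No library of either line came near those of the other. XBP1 differed by -3.58 ± 0.12 (3.56e-28), POU2AF1 by -1.69 ± 0.042 (1.16e-33), PAX5 by -1.67 ± 0.041 (1.09e-33) and EBF1 by -1.63 ± 0.079 (5.03e-22) on the log2 scale. IRF4 summed to 6210 counts in OCI-Ly18 and to 1 count in SU-DHL-4, a ratio of 6420 with an exact 95% counting interval from 1150 to 254000. PRDM1 summed to 53 counts against 0, so no ratio can be given, and its exact 95% counting interval starts at 14.3-fold. Its level in OCI-Ly18 was 18.3 times that of 3 counts over the SU-DHL-4 group. Intervals cover counting error only, and in bulk RNA fewer cells that express a gene cannot be told apart from less RNA per cell.

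Tazemetostat raised BACH2 in both lines, and by far more in SU-DHL-4, the line in which it was low. The question of this comparison is what inhibition of EZH2 does to the lymphoma cells. In OCI-Ly18 with UTD cells, 6 of the 10 genes rose and 0 fell, where 24.3% of the 16467 genes tested passed in either direction and 11.6% rose. Their median log2 fold change was 0.17, beside 0.016 over all genes tested. PRDM1 rose from 1.20, 1.54 and 0.631 CPM with DMSO to 2.95, 3.87 and 2.46 CPM with tazemetostat (log2 fold change 1.41 ± 0.34, SE, adjusted p 0.00228), on 11 to 64 counts per library. The 2 groups did not overlap. IRF4 rose from 133, 120 and 133 CPM to 232, 228 and 211 CPM (0.74 ± 0.058, 2.60e-11), again without overlap. BACH2, the repressor of PRDM1, rose too, from 632, 623 and 619 CPM to 778, 738 and 731 CPM (0.20 ± 0.044, 0.000849).

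XBP1 rose in the same comparison from 47.2, 45.1 and 48.1 CPM to 71.4, 75.8 and 71.8 CPM (0.58 ± 0.071, 2.45e-07). EBF1 rose by 0.25 ± 0.058 on the log2 scale (0.00141) and PAX5 by 0.15 ± 0.041 (0.00795), and neither gene's libraries overlapped between the groups. For PAX5 the call was lost without DMSO replicate 1 (adjusted p 0.0553) and without tazemetostat replicate 2 (0.0614). IKZF1 (-0.11 ± 0.054, 0.143), IKZF3 (0.00 ± 0.048, 0.973), SPIB (-0.08 ± 0.058, 0.377) and POU2AF1 (-0.01 ± 0.041, 0.862) did not pass, and their libraries overlapped.

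With CART19 cells present, tazemetostat raised 5 of the 10 genes in OCI-Ly18 and lowered 0, where 21.6% of genes passed and 11% rose, with a median of 0.15 beside 0.010 over all genes. IRF4 went from 99.4, 90.0 and 99.4 CPM to 159, 160 and 169 CPM (0.73 ± 0.058, 4.43e-11). BACH2 (0.21 ± 0.044, 0.000492), XBP1 (0.42 ± 0.069, 2.50e-05) and EBF1 (0.36 ± 0.059, 2.56e-05) rose as well, each without overlap between the groups. IKZF1 rose by 0.17 ± 0.054 (0.0213), a call that was lost without DMSO CART19 replicate 1 or 3, without tazemetostat CART19 replicate 1 or 3 and with no filter on low counts (adjusted p 0.0561 to 0.141). PRDM1 had 2.56, 3.04 and 3.25 CPM with DMSO and 2.43, 1.89 and 2.30 CPM with tazemetostat (-0.44 ± 0.31, 0.356). Its 3 tazemetostat libraries lay below its 3 DMSO libraries, but the difference did not pass the test. IKZF3 narrowly missed the threshold (0.13 ± 0.048, 0.0535) and passed it in 6 alternatives, named below, and PAX5 (0.03 ± 0.041, 0.647), SPIB (0.09 ± 0.057, 0.261) and POU2AF1 (0.04 ± 0.041, 0.534) did not pass.

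In SU-DHL-4, BACH2 was the member with the largest change. With UTD cells it went from 3.51, 4.95 and 3.98 CPM with DMSO to 36.8, 41.1 and 38.8 CPM with tazemetostat, 9.38 times the mean (log2 fold change 3.16 ± 0.13, 2.67e-23). With CART19 cells it went from 2.59, 2.89 and 3.33 CPM to 31.9, 31.6 and 30.2 CPM, 10.6 times the mean (3.34 ± 0.14, 2.86e-23). The tazemetostat libraries lay far above the DMSO libraries with either kind of T cell. Even so, the mean of 38.9 CPM with tazemetostat and UTD cells was below the 625 CPM of OCI-Ly18 with DMSO. The change with tazemetostat was larger in SU-DHL-4 than in OCI-Ly18 by 2.98 ± 0.099 on the log2 scale in a fit of all 24 libraries (2.66e-26). BACH2 was the only member to pass that test of the difference between the lines, which 10.6% of 17766 genes passed, 6.9% with a larger and 3.66% with a smaller value in SU-DHL-4. IKZF1 came next with 0.22 ± 0.078 (0.0634) and passed without OCI-Ly18 DMSO UTD replicate 1 (0.0409), SU-DHL-4 DMSO UTD replicate 2 (0.0107) or SU-DHL-4 tazemetostat CART19 replicate 2 (0.0359), and with upper quartile scaling (0.0472).

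Few other members moved with the drug in SU-DHL-4. With UTD cells 2 of 9 tested genes rose and 1 fell, where 35.5% of the 14861 genes tested passed, 17.2% upwards and 18.3% downwards, so the members' share was near that of all genes. With CART19 cells the counts were again 2 and 1, where 34.8% of genes passed, 16.1% upwards and 18.7% downwards. XBP1 had 3.33, 3.89 and 3.76 CPM with DMSO and UTD cells and 7.32, 5.16 and 4.59 CPM with tazemetostat (0.56 ± 0.22, 0.0434), a value that fell to 0.34 (0.321) without tazemetostat UTD replicate 1. The call was also lost without DMSO UTD replicate 1, 2 or 3 and without DMSO CART19 replicate 1 or 2 (adjusted p 0.0510 to 0.134). With CART19 cells XBP1 went from 3.95, 4.31 and 3.81 CPM to 8.48, 7.14 and 6.22 CPM (0.79 ± 0.21, 0.00278), with no overlap. POU2AF1 fell by 0.13 on the log2 scale with UTD cells (SE 0.047, adjusted p 0.0316), a call that was lost without DMSO UTD replicate 3 (0.121), without tazemetostat UTD replicate 1 (0.0558), 2 (0.0867) or 3 (0.102), and under other filters and scalings given below. PRDM1 had 0 counts in the DMSO and in the tazemetostat libraries with UTD cells, so no difference was detectable at this depth. EBF1 had 45.6, 39.4 and 44.1 CPM with DMSO and CART19 cells and 56.1, 43.9 and 54.4 CPM with tazemetostat (0.20 ± 0.090, 0.0847), and it passed without tazemetostat CART19 replicate 2 (0.31, 0.00376) or DMSO UTD replicate 1 (0.22, 0.0435). POU2AF1 with CART19 cells (-0.11 ± 0.047, 0.0734) passed without tazemetostat CART19 replicate 1 (0.0476).

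**Figure D2:**
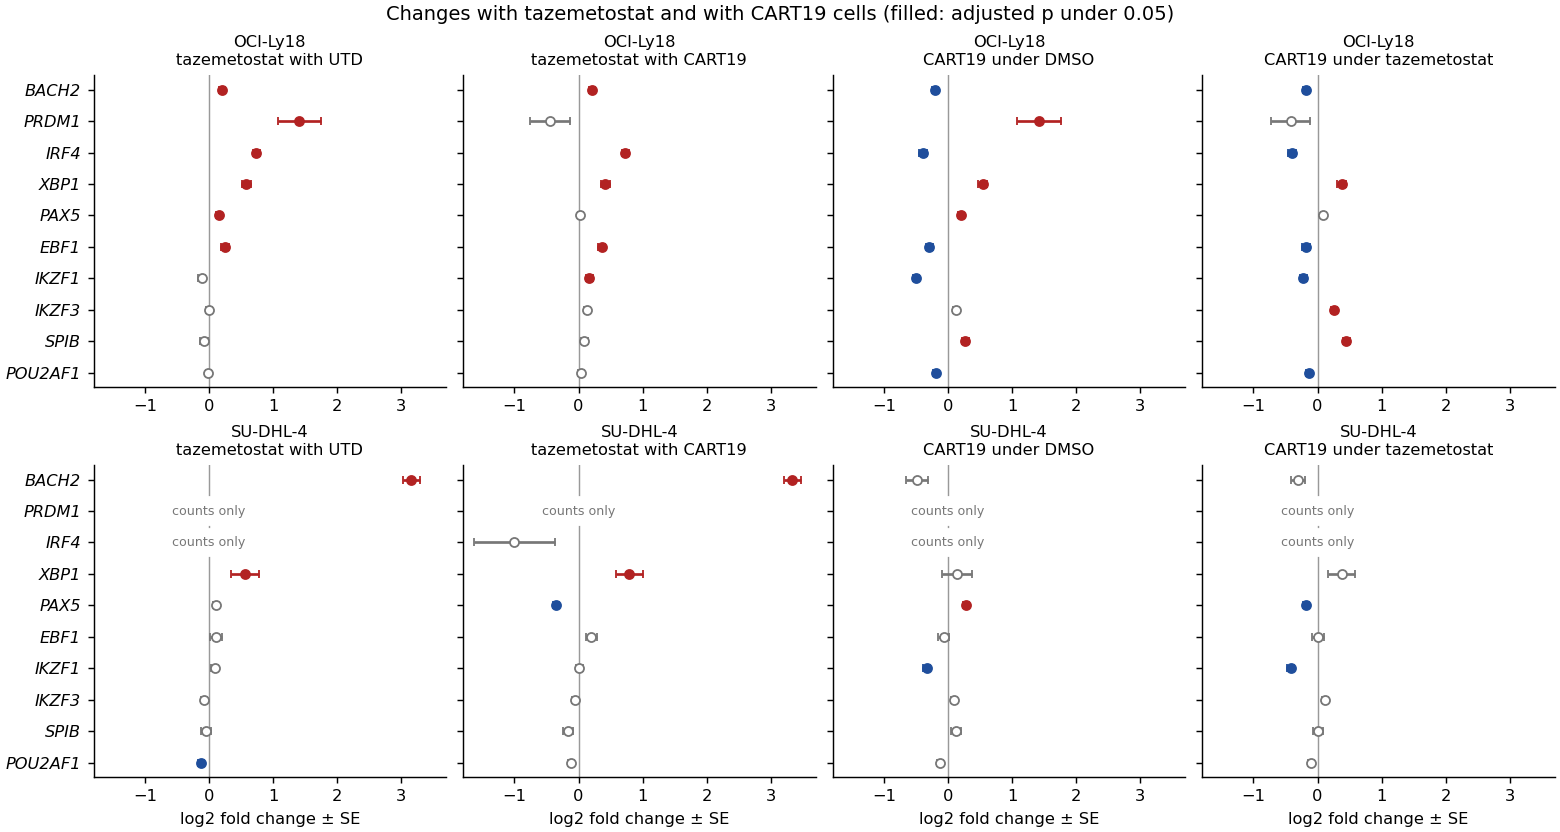
Log2 fold change (points) and its standard error (bars) of each gene for tazemetostat against DMSO and for CART19 against UTD cells, by line; filled points have an adjusted p below 0.05, red for higher and blue for lower, and "counts only" marks a gene with at most 3 counts in a group. BACH2 in SU-DHL-4 stands apart at 3.16 and 3.34, and IRF4 and XBP1 rise with tazemetostat in both OCI-Ly18 panels.

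CART19 cells lowered BACH2, IRF4, EBF1, IKZF1 and POU2AF1 and raised XBP1 and SPIB in OCI-Ly18, with DMSO and with tazemetostat alike. This comparison asks what the surviving lymphoma cells look like after 48 h with the T cells that target them. With DMSO, 4 of 10 genes rose and 5 fell, where 11% of 16467 genes passed, 6.27% upwards and 4.75% downwards. The members' median was -0.03, beside -0.004 over all genes. IKZF1 changed most among those that fell, from 192, 200 and 204 CPM with UTD cells to 138, 140 and 135 CPM with CART19 cells (-0.50 ± 0.054, 1.69e-08). IRF4 fell from 133, 120 and 133 CPM to 99.4, 90.0 and 99.4 CPM (-0.39 ± 0.059, 9.26e-06), and BACH2 from 632, 623 and 619 CPM to 530, 538 and 540 CPM (-0.20 ± 0.044, 0.00233). The groups did not overlap for any of these 3 genes.

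EBF1 (-0.29 ± 0.059, 0.000873) and POU2AF1 (-0.19 ± 0.041, 0.00144) fell by less. XBP1 rose from 47.2, 45.1 and 48.1 CPM to 69.8, 61.0 and 69.2 CPM (0.54 ± 0.071, 1.19e-06), SPIB by 0.27 ± 0.058 (0.00107) and PAX5 by 0.20 ± 0.041 (0.000639). PRDM1 rose from 19, 23 and 11 counts to 45, 55 and 54 counts (1.42 ± 0.34, 0.00419), the opposite direction to IRF4. IKZF3 did not pass (0.13 ± 0.048, 0.0751) and passed in a fit of the 2 groups alone (0.00992) and without tazemetostat CART19 replicate 2 (0.0289).

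Under tazemetostat, CART19 cells raised 3 of the 10 genes in OCI-Ly18 and lowered 5, where 13.4% of genes passed, 8.33% upwards and 5.05% downwards. With upper quartile scaling 47.3% of all calls were upwards, beside 62.3% with the scaling used here. SPIB rose from 97.5, 103 and 110 CPM to 135, 134 and 137 CPM (0.45 ± 0.057, 5.58e-07), XBP1 by 0.38 ± 0.069 (0.000159) and IKZF3 by 0.26 ± 0.048 (0.000218). IRF4 fell from 232, 228 and 211 CPM to 159, 160 and 169 CPM (-0.40 ± 0.057, 3.92e-06), and BACH2 (-0.18 ± 0.044, 0.00376) and IKZF1 (-0.22 ± 0.054, 0.00405) fell with it. EBF1 (-0.18 ± 0.058, 0.0332) and POU2AF1 (-0.14 ± 0.041, 0.0216) passed by less. EBF1 lost its call without tazemetostat UTD replicate 1 (0.181) or 2 (0.0810), tazemetostat CART19 replicate 2 (0.123) or 3 (0.0585), or DMSO UTD replicate 3 (0.0520). POU2AF1 lost its call without tazemetostat UTD replicate 2 (0.0796) or 3 (0.0895) or tazemetostat CART19 replicate 1 (0.0653). PRDM1 had 46, 64 and 44 counts with UTD cells and 49, 33 and 40 with CART19 cells (-0.42 ± 0.31, 0.433), and PAX5 did not pass (0.09 ± 0.041, 0.158).

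In SU-DHL-4 with DMSO, CART19 cells raised 2 of the 9 genes tested, IRF4 and PAX5, and lowered IKZF1, where 7.79% of 14861 genes passed, 4.62% upwards and 3.18% downwards. IRF4 passed the filter on low counts only through its CART19 groups and so had to differ. IKZF1 went from 343, 407 and 372 CPM to 304, 282 and 301 CPM (-0.33 ± 0.054, 1.68e-05), the same direction as in OCI-Ly18. PAX5 went from 239, 239 and 220 CPM to 274, 283 and 287 CPM (0.28 ± 0.047, 1.85e-05), also without overlap. BACH2, at 3.51, 4.95 and 3.98 CPM with UTD cells and 2.59, 2.89 and 3.33 CPM with CART19 cells, did not pass (-0.48 ± 0.17, 0.0830), and passed without DMSO UTD replicate 1 (0.0394) and in the fit of all 24 libraries (0.0298).

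Under tazemetostat, IRF4 was again higher with CART19 cells in SU-DHL-4, and PAX5 and IKZF1 fell, so 1 of 9 tested genes rose and 2 fell, where 14.5% of genes passed, 6.66% upwards and 7.86% downwards. IKZF1 went from 435, 406 and 415 CPM to 323, 287 and 321 CPM (-0.42 ± 0.054, 2.10e-07). PAX5 fell from 266, 264 and 265 CPM to 233, 230 and 231 CPM (-0.18 ± 0.047, 0.00599), the opposite direction to its change with DMSO. BACH2 narrowly missed the threshold (-0.30 ± 0.11, 0.0513) and passed it in 8 of the alternatives, named below.

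IRF4 was nearly absent from SU-DHL-4 until CART19 cells were added. It had 0, 0 and 1 counts with DMSO and UTD cells and 19, 24 and 25 counts with DMSO and CART19 cells, a ratio of 67.3 with an exact 95% counting interval from 11.7 to 2700. With tazemetostat it had 0, 0 and 1 counts with UTD cells and 6, 22 and 6 counts with CART19 cells, a ratio of 33.9 (5.69 to 1380). Each CART19 library lay above each UTD library. The difference between tazemetostat and DMSO in the presence of CART19 cells did not pass (-1.0 ± 0.63, 0.229), while limma voom (-1.32, 0.0471) and the fit of all 24 libraries (-1.01, 0.0136) passed it. The change of IRF4 with CART19 cells under DMSO differed between the lines (8.81e-09), and in OCI-Ly18 it was a fall (-0.39 ± 0.059). IRF4 was the only member to pass that test, which 2.83% of 17766 genes passed, 1.19% with a larger and 1.63% with a smaller value in SU-DHL-4. PRDM1 in SU-DHL-4 had counts in CART19 libraries only, 0, 0 and 3 with DMSO and 0, 3 and 2 with tazemetostat, and was not tested.

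IFNG and GZMB, products of activated T cells that were chosen after their values were seen, had 4, 7 and 5 and 19, 0 and 2 counts in the SU-DHL-4 libraries with DMSO and CART19 cells. With tazemetostat and CART19 cells IFNG had 15, 47 and 15 counts and GZMB 13, 19 and 7, and replicate 2 was the highest for both, as it was for IRF4 and PRDM1. In the SU-DHL-4 libraries with UTD cells GZMB had 0 counts, and IFNG had 5 counts in tazemetostat replicate 2 and 0 in the others. In OCI-Ly18, IFNG had 11, 18 and 14 counts with DMSO and CART19 cells, 23, 34 and 15 with tazemetostat and CART19 cells, and 0 with UTD cells. Of the 19 genes of a T cell marker list, 10 had a count in the SU-DHL-4 libraries with DMSO and CART19 cells and 9 in those with UTD cells, with summed levels of 43.4 to 45.3 and 43.9 to 45.6 CPM. With tazemetostat 13 had a count in either group, with 28.4 to 30.2 CPM with CART19 cells and 34.3 to 36.1 CPM with UTD cells. Most of that sum was TRAC, with 2006 of 2225 counts in the DMSO CART19 group. Among the defining markers CD3E had 118 counts in that group, beside 193 in the DMSO UTD group. LAT had 30 counts beside 18, and THEMIS had 7 beside 18. CD3G, CD2, CD7, CD4 and CD8A were at 0 and CD3D at 3 counts in the DMSO CART19 group. In OCI-Ly18 11 and 10 of the 19 had a count with DMSO, at 114 to 122 CPM with CART19 and 128 to 139 CPM with UTD cells, and 13 and 8 with tazemetostat, at 113 to 126 and 145 to 164 CPM. Most of those sums was TRBC2 (3197 to 3949 counts per group), ZAP70 (1377 to 1596), TRAC (960 to 1431) and TCF7 (482 to 766). CD8A had 39 to 63 counts, and CD7, CD4, CD28, GATA3 and THEMIS were at 0 in each of those 4 groups. A list of 5 myeloid markers summed to 27 and 94 counts in the SU-DHL-4 groups with CART19 cells and DMSO or tazemetostat, and to 14 and 45 with UTD cells. The part of RNA from other cells in the IRF4 and PRDM1 counts was not tested.

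**Figure D3:**
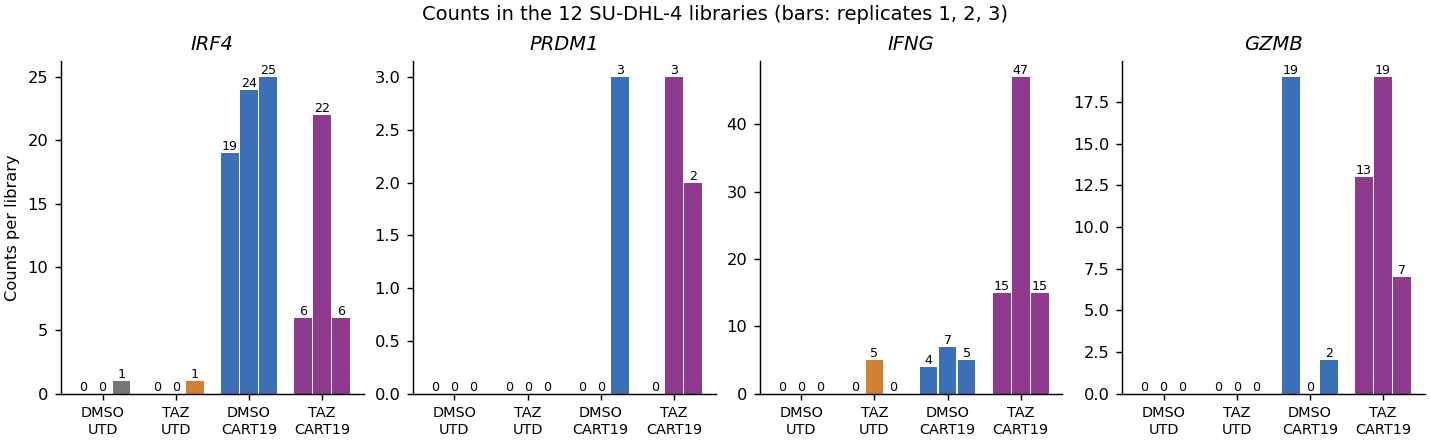
Counts of IRF4, PRDM1, IFNG and GZMB in each of the 12 SU-DHL-4 libraries; each bar is a library, in replicate order within a group, with its count above it. IRF4 reaches 19 to 25 counts with DMSO and CART19 cells, and tazemetostat CART19 replicate 2, with 22 counts of IRF4, also has the most IFNG, 47 counts.

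Whether the change with CART19 cells differs under tazemetostat was tested as an interaction in each line. In SU-DHL-4 PAX5 passed: its means were 233 CPM with DMSO and UTD cells and 282 CPM with DMSO and CART19 cells, against 265 and 231 CPM with tazemetostat, an interaction of -0.46 ± 0.067 on the log2 scale (3.14e-05). It was 1 of 9 tested members, where 0.895% of 14861 genes passed, 0.269% above 0 and 0.626% below. PAX5 was also the member that tazemetostat lowered with CART19 cells (-0.35 ± 0.047, 7.75e-08), from 274, 283 and 287 CPM to 233, 230 and 231 CPM, while with UTD cells it lay at 239, 239 and 220 CPM with DMSO and 266, 264 and 265 CPM with tazemetostat and did not pass (0.11 ± 0.047, 0.0616). That second difference passed with both other scalings (0.12, 0.0498, and 0.19, 0.00124) and with DESeq2 (0.12, 0.0367).

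In OCI-Ly18 0 of 10 members passed the interaction test with edgeR, where 0.419% of 16467 genes did, 0.334% above 0 and 0.085% below, and 3 had an unadjusted p below 0.05, while DESeq2 called 1. With upper quartile scaling 66.2% of all calls were above 0, beside 79.7% with the scaling used here. PRDM1 came nearest. It rose with tazemetostat and with CART19 cells, each given without the other, but with both it had 2.43, 1.89 and 2.30 CPM, below every library with either alone (interaction -1.84 ± 0.46, unadjusted p 0.000363, adjusted p 0.0629). It passed with no filter on low counts (0.0288) and without tazemetostat CART19 replicate 2 (0.0251). IKZF1 had 0.28 ± 0.077 (0.0847) and passed with DESeq2 (0.0335) and without the same library (0.00470). The interaction of PAX5 in OCI-Ly18 was -0.11 ± 0.057 (0.378), and whether it differs from that in SU-DHL-4 was not tested.

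**Figure D4:**
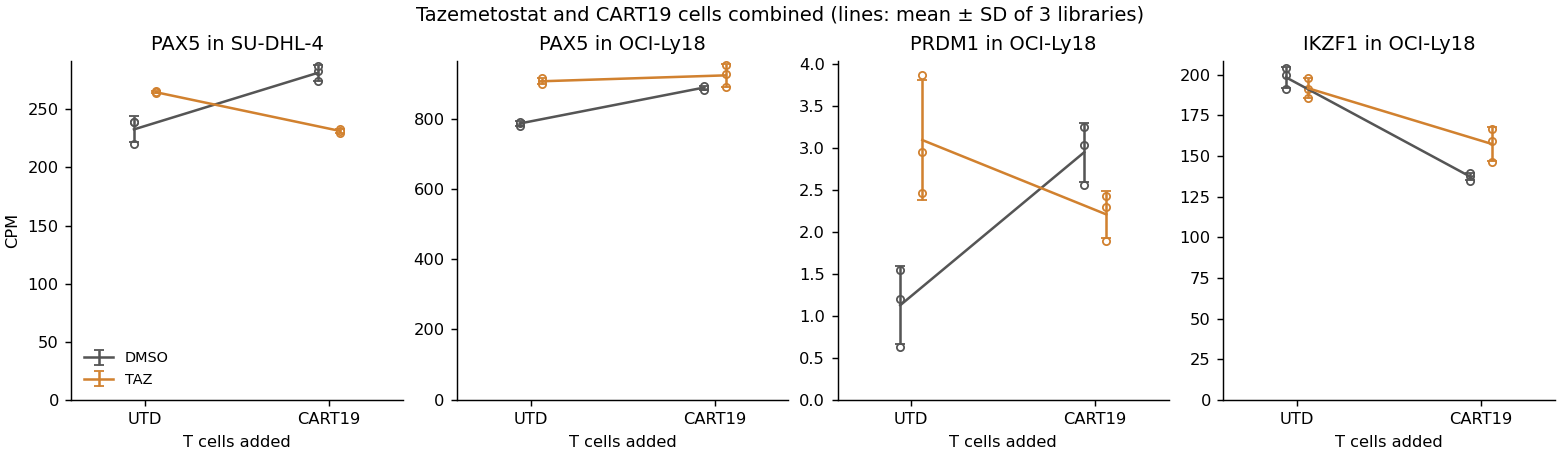
CPM of PAX5 in both lines and of PRDM1 and IKZF1 in OCI-Ly18 with UTD and CART19 cells, by drug; open points are libraries, lines join group means and bars are the SD of 3 libraries. The 2 lines of PAX5 cross in SU-DHL-4, where CART19 cells go with 282 CPM under DMSO and 231 CPM under tazemetostat.

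The counts of the gene lists that follow stand beside shares of all genes tested that were, with tazemetostat and UTD cells, 11.6% that rose and 12.7% that fell in OCI-Ly18. SU-DHL-4 had 17.2% and 18.3%. With tazemetostat and CART19 cells the shares were 11% and 10.6% in OCI-Ly18, while SU-DHL-4 had 16.1% and 18.7%. With CART19 against UTD cells they were 6.27% and 4.75% under DMSO and 8.33% and 5.05% under tazemetostat in OCI-Ly18. For SU-DHL-4 they were 4.62% and 3.18%, then 6.66% and 7.86%. No list was tested as a set. Among 26 other fate factors, 6 of 25 tested rose and 2 fell with tazemetostat and UTD cells in OCI-Ly18. They included KLF2, a quiescence factor of lymphocytes (1.44 ± 0.18, 2.31e-07), and MEF2C (0.95 ± 0.11, 4.70e-08), which rose, and IRF8, a germinal centre factor and relative of IRF4 (-0.76 ± 0.049, 3.72e-13), which fell. With CART19 cells 12 rose and 1, IRF8, fell (-0.47 ± 0.048, 7.45e-09). In SU-DHL-4 8 of 23 rose and 5 fell with UTD cells, or 12 and 4 with upper quartile scaling. With the scaling used here, IRF8 rose and MEF2C fell in SU-DHL-4, each opposite to OCI-Ly18. Both also passed the test of the difference between the lines. ID2 (1.87 ± 0.21, 8.48e-10) and ID3 (1.01 ± 0.091, 2.10e-12), which block the E proteins that act upstream of EBF1 and PAX5, rose, and RUNX3 fell (-0.59 ± 0.053, 2.02e-12). With CART19 cells 5 rose and 7 fell, but 10 and 5 with upper quartile scaling. That scaling moved the share of all calls that were upwards from 48.5% to 64.4% with UTD cells in SU-DHL-4 and from 46.4% to 64.4% with CART19 cells.

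Of 14 genes that PAX5 and EBF1 activate, 9 rose in SU-DHL-4 with tazemetostat and UTD cells and 7 with CART19 cells, the latter 8 with RLE and 11 with upper quartile scaling, and 0 fell under any of the 3 scalings tried. FCER2, the IgE receptor CD23, rose by 3.68 ± 0.25 (4.43e-16) with UTD cells. CR2, which encodes the complement receptor CD21 and is among the 9, had 4 counts over the DMSO and 59 over the tazemetostat libraries with UTD cells, and 12 and 67 with CART19 cells. It was too low under DMSO to pass the filter there, so its call was fixed by the groups in which it was high. In OCI-Ly18 5 of 13 rose and 5 fell with UTD cells, CR2 among those that rose (2.25 ± 0.37, 2.43e-05). With CART19 cells 5 rose and 4 fell in OCI-Ly18. The list's median was 0.23 in SU-DHL-4 and -0.04 in OCI-Ly18, beside 0.01 and 0.02 over all genes tested.

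Of 11 genes typical of plasma cells, 6 rose with tazemetostat and UTD cells in SU-DHL-4 and 2 fell (median 0.24, beside 0.01). SLAMF7, a surface receptor of plasma cells that T cells also carry, went from 0.0992 to 2.26 CPM (4.33 ± 0.54, 1.22e-08), ITM2C from 0.510 to 3.44 CPM (2.67 ± 0.49, 1.90e-05) and TNFRSF17, the receptor BCMA, from 22.7 to 34.7 CPM (0.53 ± 0.095, 1.44e-05). SLAMF7 and ITM2C had 5 and 25 counts over the 3 DMSO libraries, near or under the filter, and entered the test through other groups. With CART19 cells 6 rose and 1 fell. ELL2, among those that rose, lost its call in 10 of 21 alternatives with CART19 cells (1.24) and in 4 of 21 with UTD cells (1.38). In OCI-Ly18, where PRDM1, IRF4 and XBP1 rose, 3 of 11 rose and 4 fell with UTD cells. ITM2C rose (1.03 ± 0.19, 0.000508), while JCHAIN, the joining chain of polymeric antibodies, fell from 463 to 342 CPM (-0.50 ± 0.049, 3.95e-09) and CD38 fell from 198 to 136 CPM (-0.60 ± 0.057, 1.58e-09). With CART19 cells 1 rose and 2 fell, or 1 and 1 with upper quartile scaling. JCHAIN, among those that fell (-0.13), lost its call in 16 of 21 alternatives, DESeq2 and the stricter filter among them.

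Another list of 18 genes held secretory genes known as XBP1 targets and, beside them, ERN1, which encodes IRE1. Of these, 1 rose and 3 fell with tazemetostat and UTD cells in OCI-Ly18 (median -0.10, beside 0.02). Upper quartile scaling gave 2 and 2, and the share was near that of all genes. The counts in SU-DHL-4 were 3 that rose, ERN1 among them, and 6 that fell (median -0.12, beside 0.01), or 4 and 3 with upper quartile scaling. SYVN1, a ubiquitin ligase of the endoplasmic reticulum, rose in both lines (0.37 ± 0.045, 2.33e-07, and 0.35 ± 0.048, 8.21e-08). EDEM1, which helps to clear misfolded proteins, fell in OCI-Ly18 (-0.59 ± 0.055, 1.22e-09). With CART19 cells tazemetostat raised 1 and lowered 4 in OCI-Ly18, and raised 3 and lowered 8 in SU-DHL-4, the latter 3 and 4 with upper quartile scaling. With CART19 cells in OCI-Ly18, where XBP1 rose, 10 rose and 1 fell under DMSO and 11 rose and 2 fell under tazemetostat (medians 0.28 and 0.28, beside -0.00 and -0.01), 8 and 2 in the latter with upper quartile scaling. The chaperones MANF (0.61 ± 0.091, 1.02e-05), SDF2L1 (0.59 ± 0.10, 0.000111) and HYOU1 (0.46 ± 0.054, 1.14e-07) rose under DMSO. EDEM1 was the gene that fell under DMSO, and SYVN1 and EDEM1 were those that fell under tazemetostat. In SU-DHL-4 2 rose and 0 fell under DMSO, and 2 rose and 4 fell under tazemetostat, with medians of 0.04 and 0.02.

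Of 10 partners and relatives of BACH2 (its relative BACH1, small MAF proteins, corepressors, competitors and the classical target HMOX1), 2 rose and 3 fell with tazemetostat and UTD cells in SU-DHL-4, or 2 and 1 with upper quartile scaling, and 0 rose and 6 fell with CART19 cells, or 1 and 3 with upper quartile scaling. HMOX1, haem oxygenase, had 8 counts over the DMSO and 52 over the tazemetostat libraries with UTD cells, too low under DMSO to pass the filter there, so it was tested through the groups in which it was high. In OCI-Ly18 2 rose and 1 fell with UTD cells, and 1 rose and 2 fell with CART19 cells, or 2 and 1 with upper quartile scaling. With CART19 cells added, 1 rose and 0 fell under DMSO in OCI-Ly18 and 0 and 1 under tazemetostat. In SU-DHL-4 1 rose and 0 fell under DMSO, and 1 rose and 3 fell under tazemetostat.

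STAT3, which is known to promote PRDM1 in B cells, rose with CART19 cells under DMSO in OCI-Ly18 (1.15 ± 0.068, 7.88e-15) and SU-DHL-4 (1.49 ± 0.073, 7.55e-22), and with tazemetostat and UTD cells (0.74 ± 0.069, 1.22e-09, and 1.03 ± 0.073, 1.99e-15). NFKB2 (1.21 ± 0.098, 9.90e-14) and RELB (0.65 ± 0.12, 7.30e-05), the non-canonical NF-kB pair, rose with CART19 cells under DMSO in SU-DHL-4, by more than in OCI-Ly18 (differences of 1.09 ± 0.15, 2.95e-06, and 0.87 ± 0.21, 0.0101), and both fell in SU-DHL-4 with tazemetostat and UTD cells (-0.59 ± 0.11, 1.80e-05, and -0.46 ± 0.12, 0.00290). The list of 8 upstream genes (NF-kB and STAT genes and CRBN, the adaptor through which drugs degrade IKZF1 and IKZF3) held 2 that rose and 0 that fell in OCI-Ly18 with CART19 cells under DMSO (median -0.01). For SU-DHL-4 the same counts were 4 and 0 (median 0.35). Under tazemetostat the counts were 3 and 0, and 4 and 1. With tazemetostat and UTD cells 1 rose and 1 fell in OCI-Ly18, and 2 rose and 3 fell in SU-DHL-4, and with CART19 cells 2 and 0, and 1 and 4. With upper quartile scaling these 4 pairs were 1 and 0, 3 and 3, 3 and 0, and 1 and 3.

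Among the other fate factors, CART19 cells raised 6 and lowered 5 of 25 in OCI-Ly18 with DMSO, or 6 and 7 with upper quartile scaling, and raised 7 and lowered 2 with tazemetostat. RUNX3, which activated T cells also express, rose by 1.34 ± 0.11 (3.23e-11) and KLF2 by 0.87 ± 0.18 (0.00110) under DMSO, while LEF1 fell (-0.65 ± 0.060, 5.19e-10). In SU-DHL-4 3 rose and 0 fell with DMSO, led by RUNX3 (0.45 ± 0.052, 4.27e-09), and 1 rose and 5 fell with tazemetostat, BCL6, the germinal centre repressor that PRDM1 opposes, among them (-0.22 ± 0.044, 0.000339). The PAX5 and EBF1 targets gave 6 that rose and 2 that fell of 13 in OCI-Ly18 with DMSO, 5 and 2 with tazemetostat, 3 and 0 of 14 in SU-DHL-4 with DMSO, and 4 and 1 with tazemetostat. CIITA, the master factor of class II antigen presentation, rose in both lines with DMSO, by 0.67 ± 0.050 (3.81e-12) and 0.67 ± 0.058 (6.02e-13), and FCER2 rose in SU-DHL-4 by 3.35 ± 0.26 (1.34e-14). Plasma cell genes gave 2 that rose and 4 that fell of 11 in OCI-Ly18 with DMSO, SDC1, which encodes the plasma cell marker CD138, among the latter (-0.97 ± 0.18, 0.000178), and 4 and 2 with tazemetostat, or 2 and 2 with upper quartile scaling. In SU-DHL-4 they gave 2 and 1 with DMSO and 2 and 2 with tazemetostat, and SLAMF7, with 5 counts over the UTD libraries and 55 over the CART19 libraries under DMSO, entered the test through its higher groups.

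**Figure D5:**
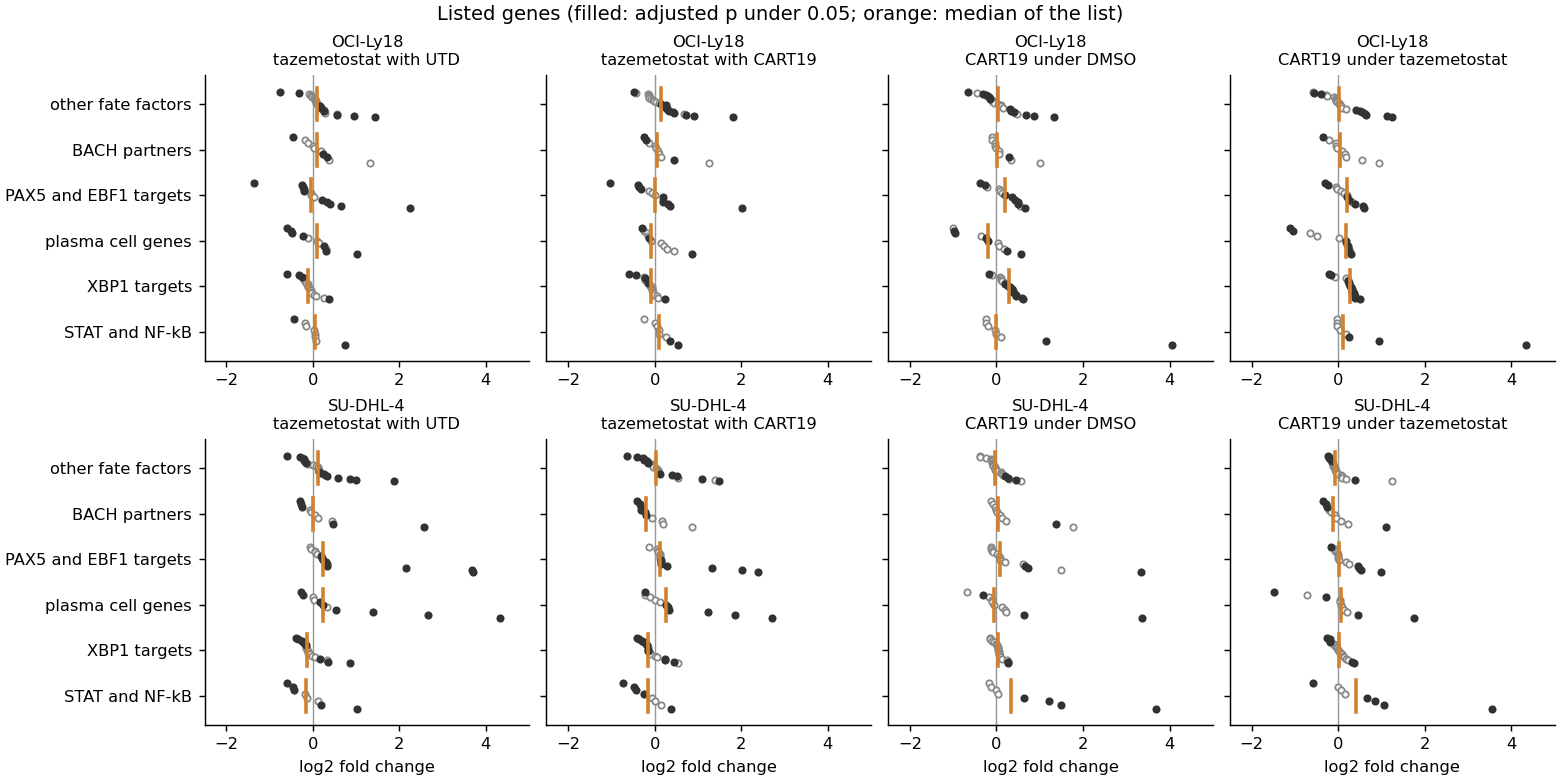
Log2 fold change of every tested gene of 6 lists, by comparison and line; filled points have an adjusted p below 0.05 and the orange bar is the median of the list. The XBP1 targets, a list that includes ERN1, lie mostly above 0 with CART19 cells in OCI-Ly18, with medians of 0.28 and 0.28.

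The genes whose pattern was most like that of BACH2, by the root mean square difference of the 6 group changes from DMSO with UTD cells of the same line among 10654 protein coding genes, were FCRL5 (0.246 on the log2 scale), JAM2 (0.336) and CHST15 (0.379). Those changes of BACH2 itself had a root mean square of 1.75. FCRL5, an Fc receptor-like protein of B cells, changed by 3.29 in SU-DHL-4 with tazemetostat and UTD cells and by 2.54 with tazemetostat and CART19 cells, where BACH2 changed by 3.16 and 2.85. For PRDM1 the nearest of 10655 genes were POLR2J2 (0.384), PKHD1L1 (0.404) and SERPINI1 (0.418), against a root mean square of 0.971 for PRDM1, and for IRF4 they were FGF14 (0.501), CD58 (0.700) and CD69 (0.836), against 1.77 for IRF4. CD58 is the ligand of CD2 on T cells and CD69 an early activation marker of lymphocytes. The IRF4 and PRDM1 patterns rest in SU-DHL-4 on the low counts given above.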

How the data were processed

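Bulk RNA sequencing of 24 libraries was deposited by the authors as whole-number counts per gene, not scaled. Per the labels' protocols, libraries came from total RNA and a NEBNext Ultra II kit. The submitters' processing notes name hg38 and DESeq2; which aligner, counter and strand option were used was not given in the sources used here. All 58735 gene IDs matched GENCODE 29, from which 27 gene names written as dates were taken. No 2 replicates were duplicates (chi-square over its degrees of freedom 2.77 to 14.8 over 24 pairs).

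The 10 members and the lists were chosen with earlier results of these data known. Counts were fitted with edgeR 4.0.16 (TMM, filterByExpr, robust quasi-likelihood) in R 4.3.3, per line (12 libraries) or over all 24 for line comparisons, and p-values were adjusted over all genes tested. The procedure was tested on simulated data. Named were all members, up to 4 genes per list and comparison by absolute log2 fold change among those past 0.05, and the 3 genes most alike in pattern with at least 5 CPM. Levels are CPM, counts per 1000000 counts of a library. Groups with at most 3 counts are given as counts. Other settings tried were 2 other scalings (RLE, upper quartile), a stricter or no filter, DESeq2 1.42.0, limma 3.58.1 voom, other sets of libraries, a replicate block and leaving out each library. Promoter windows of 8 members came from RefSeq. Some genes of the lists and markers are counted in their lists but not reported here by name.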

Additional observations from a re-analysis of the deposited data

Results flagged for a closer look

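In all, 3 results differed between groups by a test of the difference itself. The interaction of tazemetostat and CART19 cells on PAX5 in SU-DHL-4 was -0.46 on the log2 scale (adjusted p 3.14e-05). The change of BACH2 with tazemetostat and UTD cells was larger in SU-DHL-4 than in OCI-Ly18 by 2.98 (2.66e-26). The change of IRF4 with CART19 cells under DMSO was larger in SU-DHL-4 than in OCI-Ly18 by a fitted 6.03 (8.81e-09). That value depends on the prior count because 1 of the groups holds 1 count. IFNG had counts in each DMSO CART19 library of both lines. GZMB did too, except in SU-DHL-4 replicate 2, which had 0 counts of GZMB and 24 of IRF4. The part of RNA from other cells was not tested.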

How the results depend on the processing

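Of 120 member results with a test, 53 passed the threshold, and 47 of these kept their direction and their side of it in all of the 33 alternatives that apply to them. The other 6 each lost their call in some: PAX5 with tazemetostat and UTD cells, IKZF1 with tazemetostat and CART19 cells, and EBF1 and POU2AF1 with CART19 cells under tazemetostat, all in OCI-Ly18, and XBP1 and POU2AF1 with tazemetostat and UTD cells in SU-DHL-4. No passed result reversed. For POU2AF1 in SU-DHL-4 the adjusted p was 0.464 with upper quartile scaling, 0.108 with no filter, 0.0725 with the stricter filter and 0.0647 with all 24 libraries. For EBF1 with CART19 cells under tazemetostat in OCI-Ly18 it was 0.0539 with no filter, 0.102 with all 24 libraries and 0.0875 with the 2 groups alone, and for POU2AF1 there 0.0788 with no filter and 0.106 with the 2 groups alone. XBP1 in SU-DHL-4 had 0.0698 with no filter and 0.0808 with limma voom. IKZF3 with tazemetostat and CART19 cells in OCI-Ly18 passed with upper quartile scaling, the stricter filter, limma voom, all 24 libraries and without tazemetostat UTD replicate 3 or tazemetostat CART19 replicate 2 (0.00604 to 0.0387). BACH2 with CART19 cells under tazemetostat in SU-DHL-4 passed with RLE scaling, upper quartile scaling, the stricter filter, DESeq2, limma voom, all 24 libraries, the 2 groups alone and without DMSO UTD replicate 2 (0.000296 to 0.0483).

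Counts of members past the threshold moved by over 1.5 times in 4 comparisons. The interaction in OCI-Ly18 gave 1 with no filter, 1 with DESeq2 and 0 to 2 on leaving out a library, in place of 0. In SU-DHL-4 tazemetostat gave 1 with no filter and 1 to 4 on leaving out a library with UTD cells, and 5 with all 24 libraries and 3 to 5 on leaving out a library with CART19 cells, in place of 3 each. The library in the latter is tazemetostat CART19 replicate 2, and those that gave 1 with UTD cells are DMSO UTD replicate 3 and tazemetostat UTD replicate 1. The difference of the tazemetostat change between the lines gave 2 with upper quartile scaling and 1 to 2 on leaving out a library, in place of 1.

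Changes of sign occurred in 14 results near 0, none past the threshold before or after; the cause was not tested. With upper quartile scaling these were POU2AF1 with tazemetostat and UTD cells (0.0194) and the BACH2 interaction (-0.0041) in OCI-Ly18, SPIB with tazemetostat and UTD cells (0.0353), IKZF3 with tazemetostat and CART19 cells (0.0311) and SPIB with CART19 cells under tazemetostat (-0.0002, and -0.0019 with voom and -0.0026 with all 24 libraries) in SU-DHL-4, and the line differences in the tazemetostat change of XBP1 (0.0110) and PAX5 (0.0028). With no filter IKZF3 with tazemetostat and UTD cells in OCI-Ly18 gave -0.0076. On leaving out a library the OCI-Ly18 ranges were -0.0318 to 0.0482 for IKZF3 and -0.0299 to 0.0135 for POU2AF1 with tazemetostat and UTD cells, and -0.0262 to 0.0407 for BACH2 and -0.0487 to 0.0442 for IRF4 in the interaction. In SU-DHL-4 they were -0.0923 to 0.0007 for SPIB with tazemetostat and UTD cells, -0.0215 to 0.0697 for IKZF1 with tazemetostat and CART19 cells, -0.0484 to 0.1296 for EBF1 and -0.0694 to 0.0633 for SPIB with CART19 cells under tazemetostat, and -0.1456 to 0.0034 for IKZF1 and -0.0020 to 0.0680 for POU2AF1 in the interaction. For the line difference in the tazemetostat change they were -0.2630 to 0.1305 for XBP1, -0.0643 to 0.0162 for PAX5 and -0.0330 to 0.1053 for SPIB.

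Libraries with the same replicate number did not deviate together (correlations -0.18 to 0.09, with 0 of 36 over 0.1), so no pairing by number was seen. Low correlations cannot tell whether such libraries shared a culture or a T cell donor, which the labels do not say. With the replicate block 2 members passed with tazemetostat and UTD cells in SU-DHL-4 in place of 3, and 7 with CART19 cells under tazemetostat in OCI-Ly18 in place of 8, since XBP1 (adjusted p 0.0541) and EBF1 (0.0575) no longer passed; the block changed no other call of a member. Upper quartile scaling moved the median of all genes by -0.142 in the comparison of the lines. Counts of 11 to 64 per library limit PRDM1 in OCI-Ly18, and PRDM1 and IRF4 in SU-DHL-4 rest on 0 to 25.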
